A study of Mus musculus with 24 samples.

Results

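The genes described here are 45 members of the NRF2, glutathione, thioredoxin and peroxide defence system of the mouse, taken by symbol from a written list out of 52976 gene symbols counted in the series. All 45 were found. They comprise 6 genes of the NRF2 sensor and its regulators with NQO1, 7 of glutathione supply, recycling and export, and 5 thioredoxins, reductases and sulfiredoxin. A further 6 are peroxiredoxins, 6 glutathione peroxidases and 4 superoxide dismutases and catalase. The last are 5 glutathione transferases and 6 enzymes of NADPH supply and the pentose phosphate pathway. The rule names the genes and uses no measured value.

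The series profiled messenger RNA in wounds of diabetic mice and in RAW264.7, a mouse macrophage line. Its subject is a peptide gel that combines silver nanoclusters with a hydrogenase and is meant to make molecular hydrogen under light. Hydrogel wounds, titled TEOA and labelled as treated with the Fmoc-KYF-AgNCs-3S1C-Hyd2 hydrogel, were set against wounds labelled diabetic control at days 1, 7 and 14 (n = 3 libraries in each of the 6 groups). Hydrogel-treated RAW264.7 cells (n = 3) were set against cells labelled LPS, that is lipopolysaccharide, a bacterial component that activates macrophages (n = 3). All wound groups share the diabetic state. The labels give neither the strain, sex or age of the mice, nor how diabetes was induced, nor whether libraries came from separate animals or cultures, so p-values measure library-to-library spread alone, and that spread may be technical. Hydrogel-treated cells carry the name of a gel, with the endings Hyd3, Hyd4 and Hyd5 in the 3 libraries, and no mention of LPS, while the series text speaks of LPS-induced macrophages with or without gel. The labels do not settle this, and if the treated cells had received no LPS, an effect of the gel and an effect of LPS cannot be told apart.

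NRF2, the product of Nfe2l2, is a transcription factor that KEAP1 holds for degradation until electrophiles or oxidants modify KEAP1. Freed NRF2 binds antioxidant response elements near genes for glutathione synthesis, thioredoxin recycling and NADPH supply, and these feed the enzymes that remove superoxide and peroxides. In skin wounds NRF2 is best known from keratinocytes, and macrophages use the same system against the oxidants that they make themselves.

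Promoter sequences of members whose levels are described below are shown to let the letters of the antioxidant response element be read in place. They come from RefSeq on GRCm38.p6, are written 5′ to 3′ on the gene's own strand, and lie wholly before both the RefSeq start and the gene's start in the count files. Capitals mark matches to the element's core letters TGACNNNGC on either strand. In Srxn1 they mark the letters TGANTCA, which AP-1 factors bind and which can lie within an extended element.
Nfe2l2, chr2:75704870-75704913, minus strand: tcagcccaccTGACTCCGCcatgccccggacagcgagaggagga
Gclm, chr3:122245398-122245456, plus strand: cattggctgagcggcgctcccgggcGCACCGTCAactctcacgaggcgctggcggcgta
Txnrd1, chr10:82859089-82859147, plus strand: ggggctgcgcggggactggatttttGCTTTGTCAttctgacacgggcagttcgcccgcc
Prdx1, chr4:116685441-116685499, plus strand: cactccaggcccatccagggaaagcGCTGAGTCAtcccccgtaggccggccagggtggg
Sod1, chr16:90220681-90220739, plus strand: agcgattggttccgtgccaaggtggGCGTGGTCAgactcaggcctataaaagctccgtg
Srxn1, chr2:152105397-152105510, plus strand: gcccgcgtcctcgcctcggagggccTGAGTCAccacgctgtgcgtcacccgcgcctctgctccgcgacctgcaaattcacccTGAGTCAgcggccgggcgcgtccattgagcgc

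A RefSeq promoter, 250 bases before to 50 after the start, was found for 39 of the 45 members. The letters TGACNNNGC were in the window of 11 of these 39 (28.2%), against 16.6% of the 12480 wound-tested genes with a promoter and 14.0% of all 27025 genes with one. The full run TGACTCAGC was found in 2 members, Prdx1 and Me1 (5.13%, against 0.545% of the wound-tested genes), where it overlaps a TGANTCA match. TGANTCA was found in 6 members, Glrx, Gstp1, Me1, Osgin1, Prdx1 and Srxn1 (15.4%, against 7.16%). A match is a description of letters and not a binding site, and many known elements lie outside so short a window.

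Library totals were 12.4 M to 27.1 M counted read pairs in wounds and 17.9 M to 24.0 M in cells, and levels are given as CPM, counts scaled to the TMM-adjusted library size. Control day 1 replicate 1 and control day 14 replicate 1 stood apart from their groups. The first had a summed adipocyte marker level of 50610 CPM and a muscle marker level of 6995 CPM, against control day 1 medians of 9429 and 133100 CPM. The second had summed fibroblast and macrophage marker levels of 45710 and 3987 CPM, the highest of its group. The 3 control day 7 libraries, and likewise the 3 LPS libraries, differed from each other by little more than sampling noise (median chi-square per gene 0.644 to 0.797 and 0.511 to 0.614, against 0.455 from counting alone). Hydrogel day 1 replicate 1 also differed from replicates 2 and 3 of its group (26.8 and 19.7), which differed less from each other (7.62). It was kept where the 2 control libraries were left out. The count files list only part of the exon bases of some members, for example 512 bases in 4 exons for Nqo1, against 1553 bases in 6 exons in GENCODE M21 of the same build. For 11 of the 45 members under 90% of the M21 exon bases were listed, down to 33.0% for Nqo1 and 24.9% for Glrx. This touches levels compared between genes. Groups were compared over the same listed exons, but with fewer counts, and differences confined to unlisted exons were not seen.

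Per kilobase of listed exon, the highest mean level over the wound groups was that of Gpx3, the secreted peroxidase, at 549 CPM per kilobase, followed by Gpx4, which reduces lipid peroxides, at 415. The lowest was that of Slc7a11, the cystine importer, at 0.340. In RAW264.7 cells Sqstm1, the autophagy receptor p62 that binds KEAP1, led at 904 CPM per kilobase. Gpx3, first in wounds, was at 0.724 CPM or less in every cell library. Gpx2, Gpx7, Gpx8 and Sod3 had no counts in any of the 6 cell libraries, where a count of 0 allows a level of up to 0.125 to 0.167 CPM (3 counts per library, counting error only). Of the 45 members, 45 passed the filter on low counts in wounds and 38 in cells.

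Taken over all members, the hydrogel comparisons in wounds gave few calls on day 1 and more falls than rises on days 7 and 14. At a Benjamini-Hochberg adjusted p below 0.05 in the edgeR quasi-likelihood test, no member rose and 1 fell on day 1, where 7.55% of all 17592 tested genes were called (4.53% higher and 3.02% lower) and 2.22% of the members. There 12 members had an unadjusted p below 0.05, as had 25.9% of all genes, and DESeq2 called 5, beside 14.9% of all genes. On day 7, 2 members rose and 9 fell (24.4%, against 21.6% of all genes, 9.86% higher and 11.7% lower). On day 14, 1 rose and 6 fell (15.6%, against 16.1%, 5.83% higher and 10.3% lower). The total share of members called lay near the background on days 7 and 14. Hydrogel and control libraries did not overlap in 4 of the 45 members on day 1 (17.1% of all genes), 38 of 45 on day 7 (70.2%) and 21 of 45 on day 14 (43.7%). The median member log2 fold change was -0.33 on day 1, -0.29 on day 7 and -0.09 on day 14, beside medians over all genes of 0.04, 0.01 and 0.03. The 3 comparisons share no library, and Gpx7, Gpx8 and Sod3 fell on both day 7 and day 14, 3 of the 9 day 7 falls and 3 of the 6 day 14 falls. The share of all genes that fell on both days was not counted.

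NRF2, KEAP1 and most of the best known NRF2 targets did not pass in wounds on any day. Of a panel of 10 (Nfe2l2, Keap1, Nqo1, Gclc, Gclm, Slc7a11, Txnrd1, Srxn1, Osgin1 and G6pdx), G6pdx fell on day 1, and on day 14 Gclc rose and Srxn1 fell. On day 7 the adjusted p of the 10 ran from 0.0906 (Nqo1) to 0.965 (Keap1). Nfe2l2 (chr2:75675513-75704641, minus strand) stood at 90.7, 150 and 101 CPM in hydrogel wounds on day 1, against 89.6, 76.4 and 88.1 CPM in control wounds. The hydrogel libraries all lay above the controls, the lowest by little, and the difference did not pass (log2 fold change 0.43 ± 0.22 SE, edgeR adjusted p = 0.236). On day 7 Nfe2l2 was at 67.4, 65.6 and 66.6 CPM in hydrogel wounds and at 85.4, 86.8 and 86.7 CPM in control wounds. Here the hydrogel libraries were all below the controls, again without passing (-0.38 ± 0.22, adjusted p = 0.230). On day 14 the groups overlapped, at 60.0, 69.9 and 80.3 CPM in hydrogel wounds and 103, 83.8 and 57.2 CPM in control wounds (-0.21 ± 0.22, adjusted p = 0.533).

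Keap1, the NRF2 inhibitor, gave 86.5, 239 and 172 CPM in hydrogel wounds on day 1 and 82.6, 130 and 107 CPM in control wounds (0.64 ± 0.27, adjusted p = 0.148). On days 7 and 14 its log2 fold changes were 0.02 and -0.07, with standard errors of 0.27. The quinone reductase gene Nqo1, a classical NRF2 target, was low throughout, counted over only 512 of its 1553 M21 exon bases. On day 7 it was at 6.82, 5.99 and 5.88 CPM in hydrogel wounds against 2.83, 4.27 and 3.42 CPM in control wounds. The groups did not overlap, but the difference did not pass (0.83 ± 0.34, adjusted p = 0.0906), and on day 14 the groups overlapped. Osgin1, an NRF2-responsive gene linked to growth arrest, was at 44.8, 38.0 and 52.1 CPM in hydrogel wounds on day 7 against 27.0, 25.8 and 24.0 CPM in control wounds. This difference too fell outside the threshold (0.81 ± 0.35, adjusted p = 0.109), and so did the overlapping one on day 1 (1.10 ± 0.35, adjusted p = 0.0684). Sqstm1 was at 611, 619 and 658 CPM in hydrogel wounds on day 7 against 375, 368 and 377 CPM in control wounds (0.75 ± 0.45, adjusted p = 0.238).

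**Figure D1:**
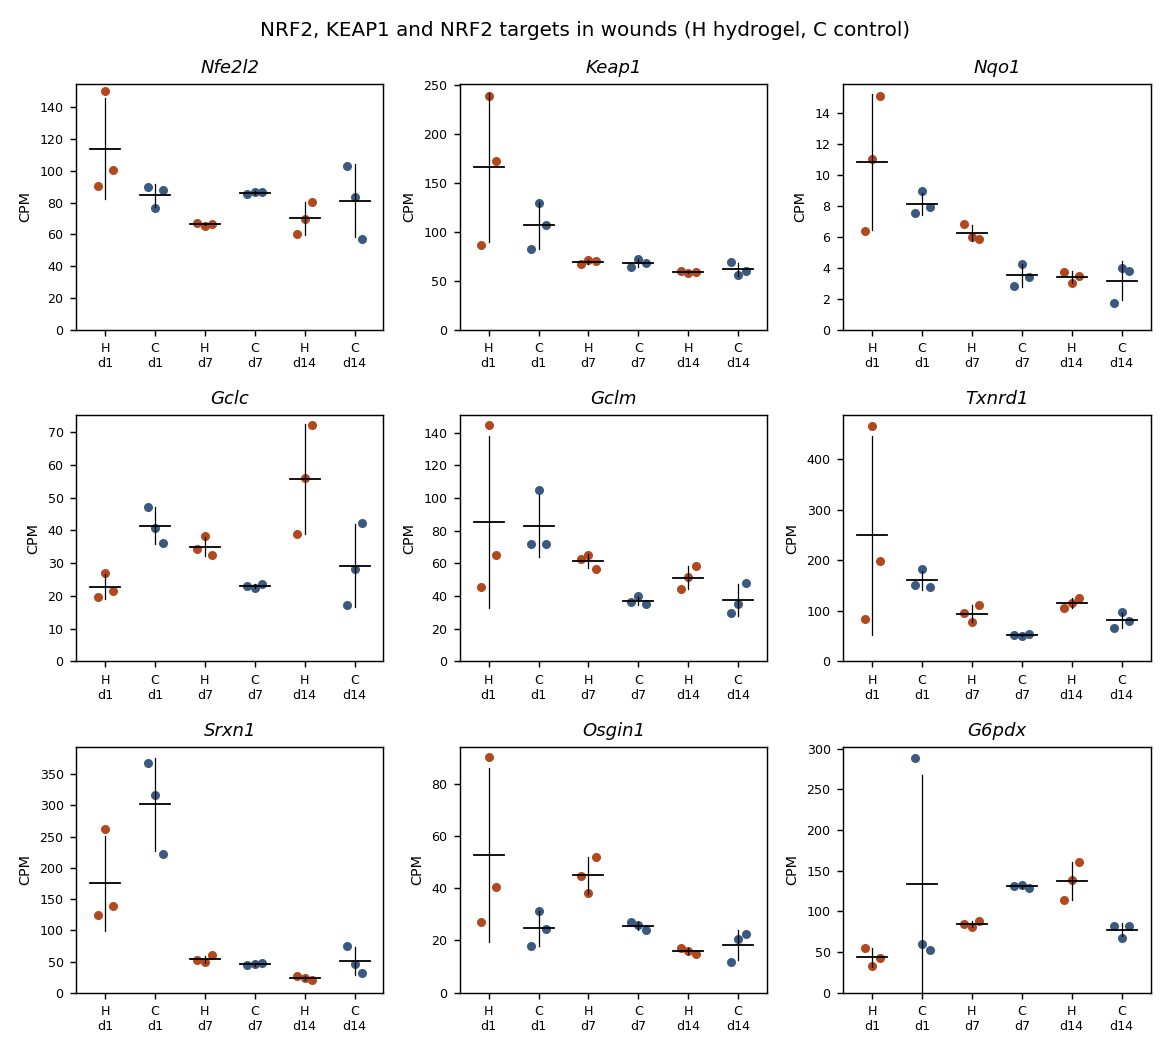
Levels in CPM of Nfe2l2, Keap1 and 7 NRF2 targets in the 18 wound libraries, hydrogel (H) left of control (C) at days 1, 7 and 14, with points for libraries, a horizontal line for the mean and a vertical line for the SD (n = 3). On day 7 Nqo1 lay at 5.88 to 6.82 CPM in hydrogel wounds and 2.83 to 4.27 CPM in control wounds, while Nfe2l2 was lower in hydrogel wounds, at 65.6 to 67.4 CPM against 85.4 to 86.8 CPM. Neither difference passed the test.

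In the glutathione supply group, Gclc and Glrx differed in their hydrogel effect between days. Gclc encodes the catalytic subunit of glutamate-cysteine ligase, the rate-limiting step of glutathione synthesis (chr9:77754535-77794485). On day 1 it was at 19.8, 27.1 and 21.5 CPM in hydrogel wounds against 47.2, 40.8 and 36.1 CPM in control wounds, on day 7 at 34.2, 38.3 and 32.6 CPM against 22.9, 22.4 and 23.7 CPM, and on day 14 at 38.8, 55.8 and 72.3 CPM against 17.1, 28.3 and 42.3 CPM. All hydrogel libraries were below the controls on day 1 and above them on day 7, and the groups overlapped on day 14. The log2 fold change was -0.86 ± 0.28 on day 1 (adjusted p = 0.0695), 0.60 ± 0.28 on day 7 (adjusted p = 0.128) and 0.93 ± 0.28 on day 14 (adjusted p = 0.0336), so Gclc rose on day 14. Without control day 14 replicate 1, its lowest control value, the day 14 difference was 0.66 and did not pass (adjusted p = 0.131). The difference between the days did pass (interaction adjusted p = 0.0137, where 15.8% of all genes were called). The day 7 effect exceeded the day 1 effect by 1.46 ± 0.39 (adjusted p = 0.0247) and the day 14 effect exceeded it by 1.79 ± 0.39 (adjusted p = 0.0098) on the log2 scale.

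The modifier subunit gene Gclm was at 62.5, 65.0 and 56.5 CPM in hydrogel wounds on day 7 against 36.1, 39.8 and 35.1 CPM in control wounds. These groups were apart, yet the difference did not pass (0.73 ± 0.33, adjusted p = 0.117), nor did those of day 1 (0.04 ± 0.32) and day 14 (0.45 ± 0.32). Slc7a11 was at 6.70, 3.58 and 3.88 CPM in hydrogel wounds on day 1 against 3.13, 1.14 and 1.96 CPM in control wounds, and its log2 fold changes of 1.17 ± 0.65, 0.47 ± 0.68 and 1.13 ± 0.63 on days 1, 7 and 14 did not pass. Glrx, a glutaredoxin that uses glutathione to reduce mixed disulfides, rose on day 7. It was at 94.5, 94.5 and 98.5 CPM in hydrogel wounds, against 52.9, 56.8 and 53.2 CPM in control wounds, with no overlap (0.82 ± 0.22, adjusted p = 0.0170). On day 14 it was at 55.2, 46.7 and 41.1 CPM in hydrogel wounds and 66.4, 56.1 and 57.3 CPM in control wounds, lower in every hydrogel library without passing. Its effect differed between days (interaction adjusted p = 0.025), the day 7 effect exceeding that of day 1 by 1.14 ± 0.31 (adjusted p = 0.0254). Abcc1, an exporter of glutathione conjugates, was higher in all day 7 hydrogel libraries (0.86 ± 0.32, adjusted p = 0.0615), while Gss, which completes glutathione, was not (0.04 ± 0.27).

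Among thioredoxin genes Txnrd2 fell on day 7 and Srxn1 on day 14. Txnrd2, the mitochondrial thioredoxin reductase, was at 17.7, 17.0 and 19.7 CPM in hydrogel wounds on day 7 against 40.01, 36.0 and 36.1 CPM in control wounds. Every hydrogel library lay below every control (-1.04 ± 0.22, adjusted p = 0.00590). Txnrd1, the cytosolic reductase and an NRF2 target, was at 94.8, 77.1 and 111 CPM in hydrogel wounds on the same day against 52.3, 49.9 and 53.0 CPM in control wounds. It lay on the other side of its controls, in all libraries, without passing (0.86 ± 0.40, adjusted p = 0.131), and on day 14 the log2 fold change was 0.51 ± 0.40 (adjusted p = 0.401). Srxn1 encodes sulfiredoxin, which repairs over-oxidised peroxiredoxins. On day 14 it was at 26.5, 23.8 and 20.2 CPM in hydrogel wounds against 75.5, 46.4 and 31.1 CPM in control wounds, all hydrogel libraries being lower. Srxn1 fell by 1.12 ± 0.32 on the log2 scale (adjusted p = 0.0276), but without control day 14 replicate 1 the value was -0.72 (adjusted p = 0.168). On day 1 Srxn1 was at 124, 262 and 139 CPM in hydrogel wounds against 368, 316 and 222 CPM in control wounds, overlapping (-0.79 ± 0.32, adjusted p = 0.133).

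Of the 6 peroxiredoxins, only Prdx4 passed in any hydrogel comparison of wounds. Prdx4 is the peroxiredoxin of the secretory pathway, and on day 7 it was at 14.3, 15.01 and 16.8 CPM in hydrogel wounds against 44.6, 43.6 and 39.9 CPM in control wounds (-1.47 ± 0.49, adjusted p = 0.0439). The other 5 had day 7 log2 fold changes between -0.33 (Prdx5) and 0.15 (Prdx1), none past the threshold.

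Of the glutathione peroxidases, Gpx7 and Gpx8 fell on days 7 and 14 and Gpx3 on day 14. Gpx3 (chr11:54902453-54910377, plus strand) was at 150, 115 and 89.5 CPM in hydrogel wounds on day 14, against 3426, 780 and 454 CPM in control wounds. All 3 hydrogel libraries were below the lowest control, and control replicate 1 was far above its group. Gpx3 fell by 3.72 ± 0.57 on the log2 scale (adjusted p = 0.00159), and without control day 14 replicate 1 the value was -2.39 (adjusted p = 0.00066). With only that library left out, it was the 1 member whose day 14 call held. With control day 1 replicate 1 left out as well, the calls of Gpx3, Gpx7, Gpx8, Gstm1 and Sod3 held. With only the compared groups in the model Gpx3 did not pass (adjusted p = 0.0619). On day 1 Gpx3 was at 1809, 1291 and 1168 CPM in hydrogel wounds and 1283, 1117 and 1012 CPM in control wounds, overlapping. On day 7 it was at 532, 482 and 571 CPM against 1235, 1206 and 1212 CPM, lower in every hydrogel library but not past the threshold (-1.21 ± 0.52, adjusted p = 0.103). The Gpx3 effect differed between days (interaction adjusted p = 0.00716), the day 14 effect lying 4.04 ± 0.75 below that of day 1 (adjusted p = 0.00383).

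Gpx7 and Gpx8, peroxidases of the endoplasmic reticulum, fell on days 7 and 14. Gpx8 was at 19.8, 21.6 and 19.8 CPM in hydrogel wounds on day 7, against 128, 128 and 128 CPM in control wounds (-2.65 ± 0.53, adjusted p = 0.00425). Gpx7 was at 11.3, 12.7 and 10.8 CPM on day 7 in hydrogel wounds, against 57.4, 55.3 and 52.9 CPM in control wounds (-2.25 ± 0.56, adjusted p = 0.0123). Spread within either group was narrow beside these gaps, and wider among the day 14 controls. On day 14 Gpx8 was at 24.8, 22.1 and 21.6 CPM in hydrogel wounds and 123, 36.1 and 52.6 CPM in control wounds (-1.63 ± 0.51, adjusted p = 0.0403). Gpx7 was at 17.3, 13.5 and 10.3 CPM in hydrogel wounds and 112, 33.4 and 29.9 CPM in control wounds (-2.09 ± 0.56, adjusted p = 0.0201). In each of these comparisons the hydrogel libraries were all below the controls. On day 14 both calls were lost with control replicate 1 alone left out (Gpx8 -0.96, adjusted p = 0.254, and Gpx7 -1.21, adjusted p = 0.149). Both were called with control day 1 replicate 1 left out too. Gpx2, an epithelial peroxidase, rose on day 7 at a low level, with 3.81, 2.74 and 3.07 CPM in hydrogel wounds against 0.372, 0.474 and 0.279 CPM in control wounds (3.07 ± 1.05, adjusted p = 0.0486). Gpx1 and Gpx4 were lower in every day 7 hydrogel library without passing (-1.08 ± 0.55 and -0.76 ± 0.33).

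Both copper-zinc superoxide dismutases and catalase fell on day 7, and the mitochondrial Sod2 did not pass. Sod1 (chr16:90220754-90226329, plus strand) was at 228, 241 and 241 CPM in hydrogel wounds against 739, 733 and 762 CPM in control wounds (-1.65 ± 0.30, adjusted p = 0.00310). Sod3, the secreted enzyme (chr5:52367943-52371418), was at 24.9, 19.5 and 22.3 CPM against 202, 196 and 201 CPM (-3.17 ± 0.88, adjusted p = 0.0198). Catalase, Cat, the peroxisomal enzyme that splits hydrogen peroxide, was at 284, 277 and 269 CPM against 544, 542 and 540 CPM (-0.97 ± 0.33, adjusted p = 0.0457). For each of the 3 genes the groups were far apart beside their narrow spread. The Sod1 call held in 13 of 14 alternative settings, that of Sod3 in 8 and that of Cat in 5. Cat was lost with RLE scaling, with no filter and without any 1 of the day 7 libraries. Sod3 was lost with no filter, with DESeq2 and without any 1 of the hydrogel libraries. On day 14 Sod3 was at 9.28, 8.92 and 7.94 CPM in hydrogel wounds against 364, 36.0 and 21.1 CPM in control wounds. It fell by 4.01 ± 0.91 (adjusted p = 0.00968), and without control replicate 1 the value of -1.71 did not pass (adjusted p = 0.0843). With control day 1 replicate 1 left out too, Sod3 was called. Sod2 had log2 fold changes of 0.11 ± 0.19 on day 7 and 0.22 ± 0.19 on day 14.

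**Figure D2:**
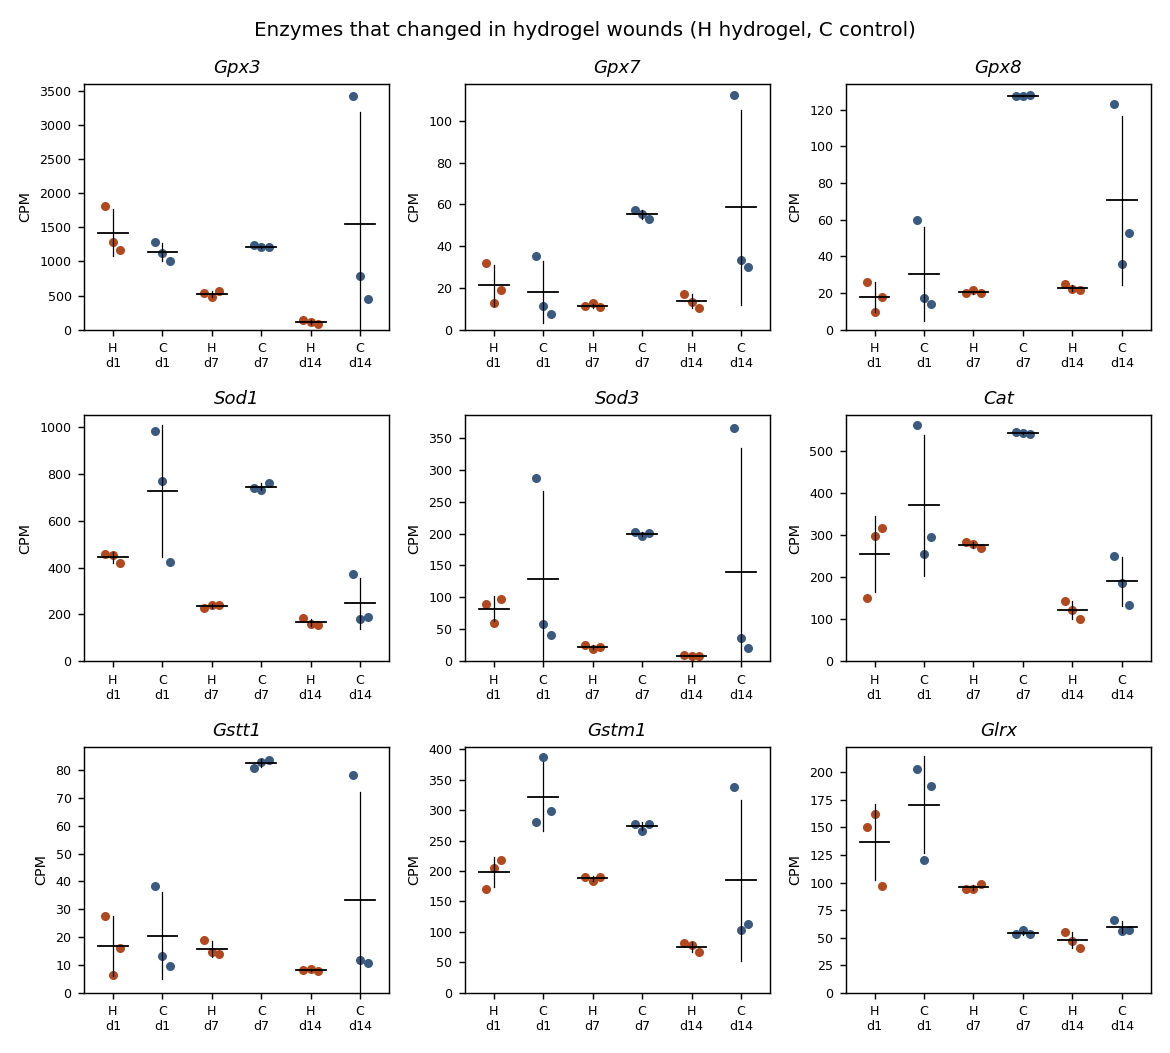
Levels in CPM of 9 members in the 18 wound libraries, hydrogel (H) left of control (C) at days 1, 7 and 14, with points for libraries, a horizontal line for the mean and a vertical line for the SD (n = 3, drawn from 0). Sod1, Sod3, Cat, Gpx7 and Gpx8 were lower in every hydrogel library on day 7, and on day 14 control replicate 1 stood high, for example at 3426 CPM for Gpx3.

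A glutathione transferase fell on each of days 7 and 14. Gstt1, of the theta class, was at 19.1, 14.5 and 14.0 CPM in hydrogel wounds on day 7 against 80.8, 82.8 and 83.7 CPM in control wounds (-2.38 ± 0.70, adjusted p = 0.0268). Gstm1, of the mu class, was at 82.2, 78.0 and 66.7 CPM in hydrogel wounds on day 14 against 338, 104 and 113 CPM in control wounds (-1.29 ± 0.34, adjusted p = 0.0202). Neither pair of groups overlapped, and the Gstm1 value without control replicate 1 was -0.52 (adjusted p = 0.113). With control day 1 replicate 1 left out too, Gstm1 was called. Gstp1 has a near copy, Gstp2, and its counts are uncertain for that reason.

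Among the enzymes of NADPH supply and the pentose phosphate pathway, G6pdx, which opens that pathway (chrX:74409483-74429194), fell on day 1. It was at 55.6, 32.8 and 42.2 CPM in hydrogel wounds against 288, 60.1 and 52.5 CPM in control wounds, overlapping, with control replicate 1 alone far above the rest. The log2 fold change of -1.62 ± 0.47 (adjusted p = 0.0480) became -0.37 without that library and did not pass (adjusted p = 0.272). On day 7 G6pdx was at 84.6, 80.5 and 88.3 CPM in hydrogel wounds against 131, 132 and 129 CPM in control wounds (-0.63 ± 0.46, adjusted p = 0.333), and on day 14 at 114, 139 and 160 CPM against 82.0, 67.9 and 82.6 CPM (0.83 ± 0.46, adjusted p = 0.227). Its hydrogel libraries were thus all below the controls on day 7 and all above them on day 14, and the effects differed between days (interaction adjusted p = 0.0455). The day 14 effect exceeded that of day 1 by 2.45 ± 0.66 (adjusted p = 0.0275). Tkt, a transketolase that returns sugar phosphates to glycolysis, fell on day 7, at 304, 279 and 335 CPM in hydrogel wounds against 874, 882 and 907 CPM in control wounds (-1.54 ± 0.50, adjusted p = 0.0397).

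Without the 2 control libraries that stood apart, 4 members were called on day 1 (19.6% of all genes), 20 on day 7 (5 rose and 15 fell, 39.4% of all genes) and 6 on day 14 (15.3%). The 6 on day 14 were G6pdx, Gpx3, Gpx7, Gpx8, Gstm1 and Sod3. The 11 day 7 calls were all among those 20. The day 7 count also rests on all 6 libraries of that day. Leaving out any 1 of them left 3 to 5 of the 11 calls, and summing the libraries of each day 7 group into 1 left none. The shares of all genes called fell too, to 11% without control day 7 replicate 1, 10.4% without replicate 2 and 0% after summing. On day 14, 1 member passed without control replicate 1 or without hydrogel replicate 3, 2 without hydrogel replicate 2, and 11 without control replicate 3. Shares of all genes are not set beside these day 14 counts, so the swings cannot be called particular to the members. With only the compared groups in the model no member was called on day 14 (2.61% of all genes).

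Markers of other cell types moved with the same groups. On day 7 the summed level of 8 keratinocyte markers was 7993 to 8134 CPM in hydrogel wounds against 660 to 665 CPM in control wounds, and 7 of the 8 rose, with Krt14 at a log2 fold change of 4.71. Fibroblast markers summed to 1359 to 1590 CPM against 9887 to 10020 CPM (6 of 6 fell, Lum by 2.56), macrophage markers to 308 to 356 CPM against 2339 to 2345 CPM (7 of 7 fell, Cd68 by 2.25), and adipocyte markers to 841 to 896 CPM against 19860 to 20180 CPM (6 of 7 fell, Lep by 6.01). None of these markers was at 0 in a day 7 library. Erythrocyte markers summed to 124 to 151 CPM in hydrogel wounds against 1238 to 1263 CPM in control wounds (6 of 6 tested fell), endothelial markers to 231 to 233 CPM against 854 to 868 CPM (4 of 5 fell), and muscle markers to 94440 to 108100 CPM against 32140 to 32630 CPM (1 of 8 rose). On day 14 fibroblast markers summed to 1963 to 2537 CPM in hydrogel wounds against 10440 to 45710 CPM in control wounds, and macrophage markers to 72.5 to 103 CPM against 495 to 3987 CPM, with 6 of 6 and 7 of 7 fallen. On day 1 neutrophil markers summed to 183 to 920 CPM in hydrogel wounds against 127 to 205 CPM in control wounds, with 3 of 6 risen. On the same day erythrocyte markers summed to 153 to 301 CPM in hydrogel wounds against 765 to 3579 CPM in control wounds, with 5 of 6 fallen. Their part in the member differences was not tested. In bulk tissue fewer cells of a type and less of a transcript per cell cannot be told apart.

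**Figure D3:**
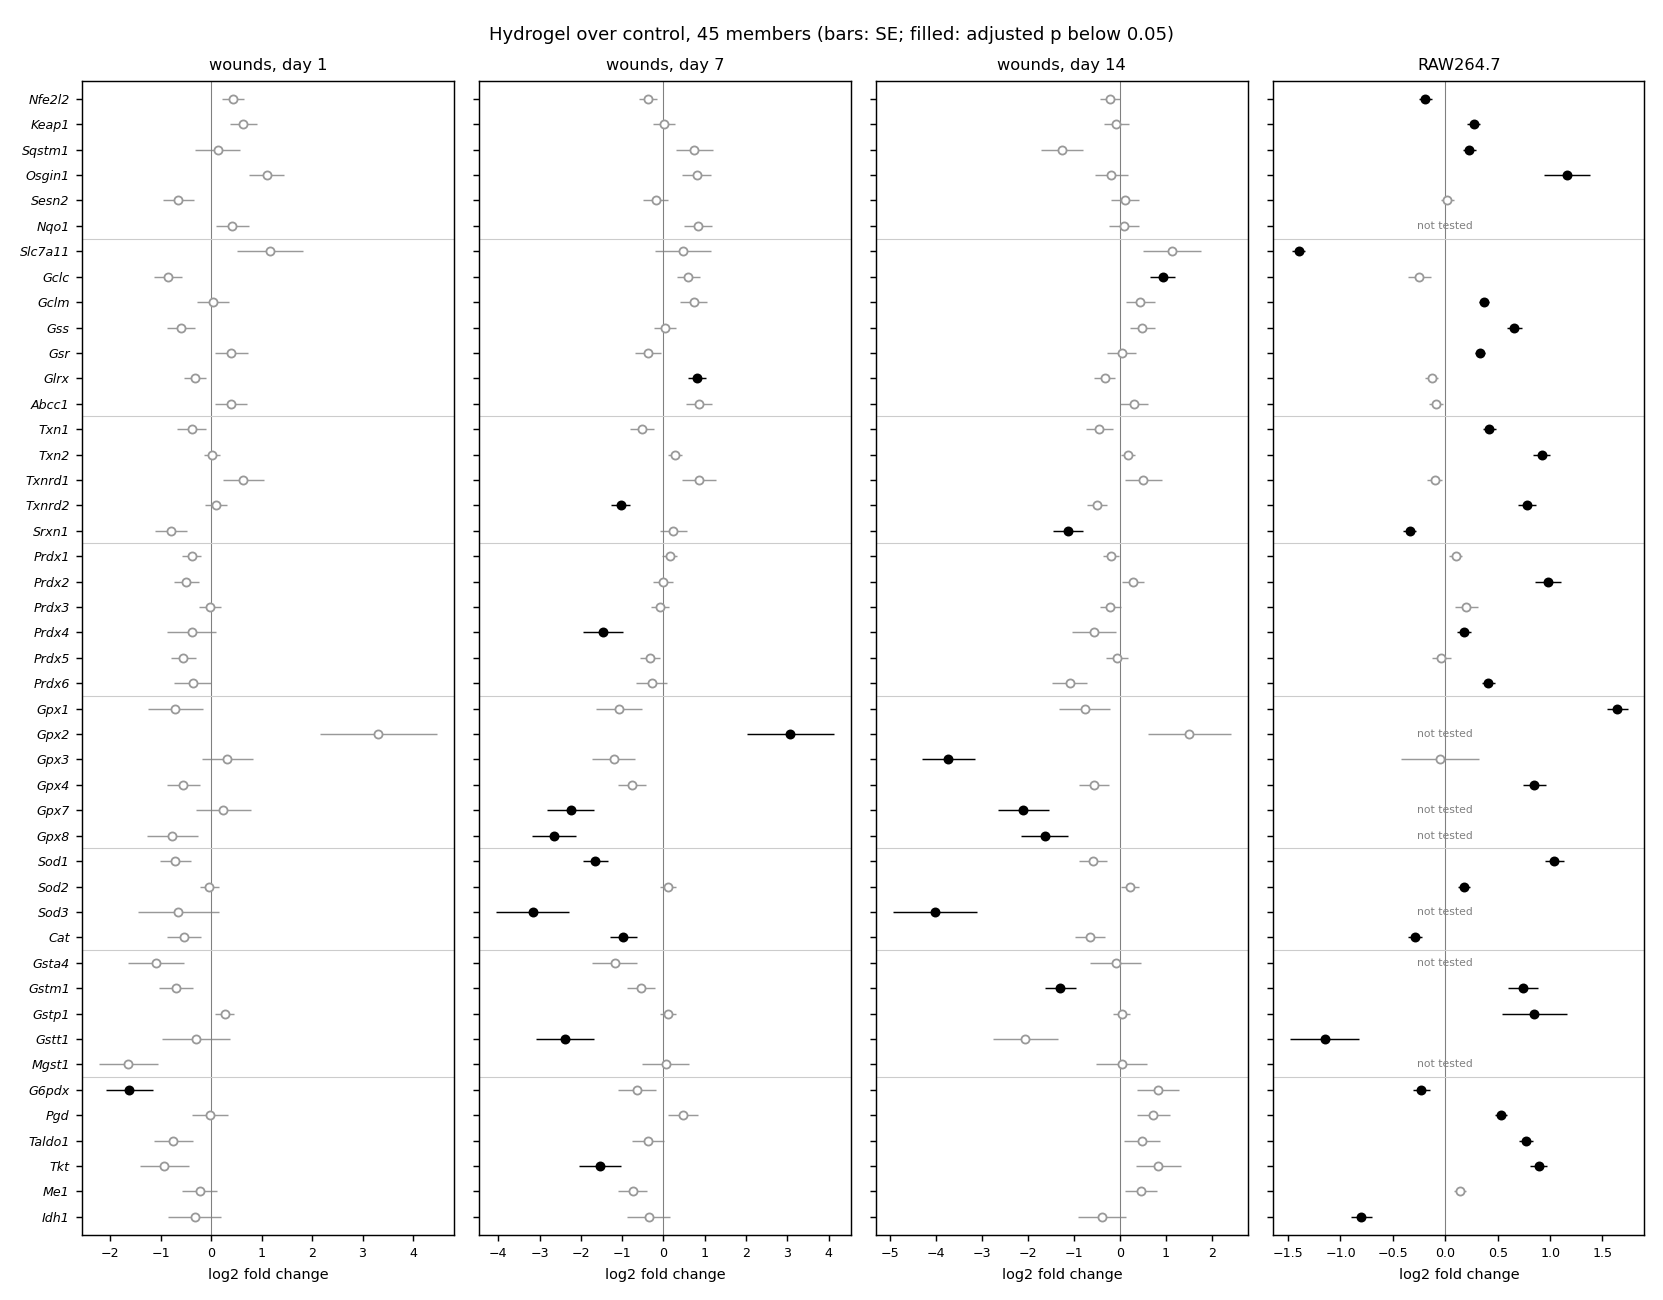
Log2 fold changes of hydrogel over control for the 45 members, in wounds on days 1, 7 and 14 and in RAW264.7 cells. Members are grouped by role from the sensor genes at the top to NADPH supply and the pentose phosphate pathway at the bottom. Bars show the SE and filled points an adjusted p below 0.05. Filled points number 1, 11, 7 and 28 in the 4 panels, and the standard errors in cells, 0.06 for Nfe2l2, are far smaller than in wounds, where that of Nfe2l2 was 0.22.

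Between days, more members fell than rose in each arm, and most of those compared on day 7 did not pass. In hydrogel wounds 4 members rose and 22 fell on day 14 compared with day 1 (57.8%, against 47.8% of all genes), and in control wounds 2 rose and 20 fell (48.9%, against 32.4%). The median log2 fold change was -0.76 in hydrogel and -0.78 in control wounds, beside -0.07 and 0.02 over all genes. The 2 comparisons share no library, and 15 members fell in both, 68.2% of the hydrogel falls and 75.0% of the control falls. The share of all genes that fell in both was not counted, so this overlap cannot be called particular to the members. On day 7 compared with day 1, 2 rose and 9 fell in hydrogel wounds (24.4%, against 18.3%), and 6 rose and 13 fell in control wounds (42.2%, against 31.6%). In each arm the day 7 and day 14 comparisons share the day 1 libraries. The shares of all genes given here join both directions, so the falls and rises of members have no matching shares beside them.

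Srxn1 fell in both arms at both later days. Its mean was 175, 53.9 and 23.5 CPM on days 1, 7 and 14 in hydrogel wounds and 302, 45.6 and 51.0 CPM in control wounds. The day 14 over day 1 log2 fold change was -2.90 ± 0.34 in hydrogel wounds (adjusted p = 4.3e-05) and -2.57 ± 0.33 in control wounds (adjusted p = 0.000114). Sqstm1 averaged 2349, 630 and 200.5 CPM on days 1, 7 and 14 in hydrogel wounds and fell by 3.55 ± 0.50 between days 1 and 14 (adjusted p = 0.000136). Glutathione reductase, Gsr, which recycles oxidised glutathione, averaged 24.97 ± 1.7 CPM in hydrogel wounds on day 7 against 113 ± 66 CPM on day 1 (SD, n = 3 each). It fell by 2.18 ± 0.33 (adjusted p = 0.00173), and in control wounds it fell by 1.41 ± 0.32 (adjusted p = 0.00566).

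Txnrd2 averaged 42.1, 18.1 and 10.3 CPM on days 1, 7 and 14 in hydrogel wounds, and its day 14 fall of 2.04 ± 0.23 had the smallest adjusted p of any member in that arm (3.5e-05). Gpx3 in hydrogel wounds fell by 3.59 ± 0.56 between days 1 and 14 (adjusted p = 0.000256). In control wounds Glrx averaged 171, 54.3 and 59.9 CPM on days 1, 7 and 14 and fell at both later days, by 1.65 ± 0.22 on day 7 (adjusted p = 0.000246). Sod2 fell by 1.41 ± 0.19 in control wounds on day 14 (adjusted p = 0.000154). The 4 members that rose on day 14 in hydrogel wounds were Gclc (1.29 ± 0.28, adjusted p = 0.00204), G6pdx (1.66 ± 0.47, adjusted p = 0.00959), Tkt (1.74 ± 0.50, adjusted p = 0.0110) and Prdx2 (0.65 ± 0.24, adjusted p = 0.0331). In control wounds the rises on day 7 with the smallest adjusted p were those of Tkt (2.14 ± 0.51, adjusted p = 0.00666), Gpx8 (2.07 ± 0.52, adjusted p = 0.0083) and Gsta4 (1.73 ± 0.56, adjusted p = 0.0302), and those on day 14 were Gpx7 and Gpx2.

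**Figure D4:**
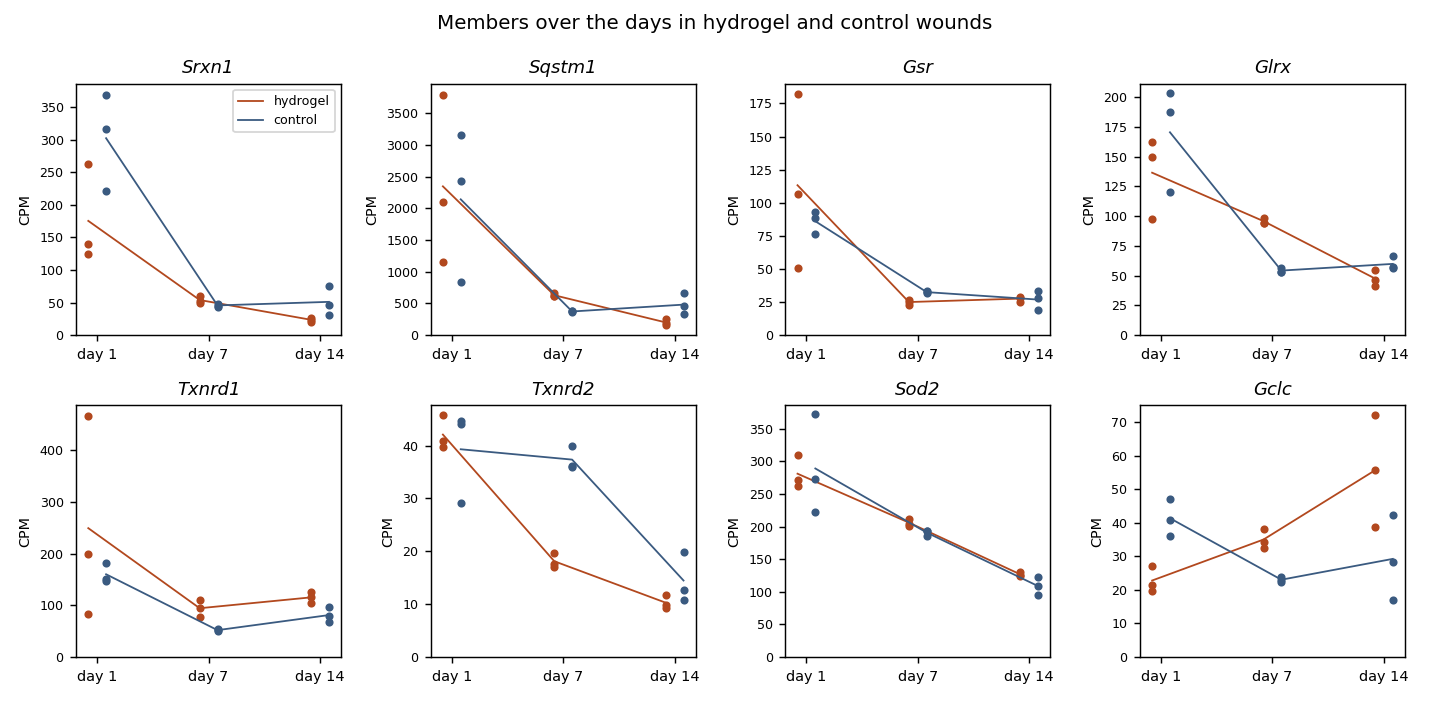
Levels in CPM of 8 members on days 1, 7 and 14, with points for libraries and lines through group means, hydrogel (red) beside control (blue), n = 3 each. Srxn1, Sqstm1, Gsr and Glrx were lower on day 14 than on day 1 in both arms, and Gclc rose in hydrogel wounds to a mean of 55.7 CPM on day 14.

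In RAW264.7 cells 21 members rose and 7 fell in hydrogel-treated against LPS-labelled cells, of 38 tested (73.7%, against 72.5% of all 12972 tested genes, 34.7% higher and 37.8% lower). The groups did not overlap in 30 of the 38, and in 75.9% of all genes. The share called is that of the background, and the directions were more often up, with a median log2 fold change of 0.22 against -0.04 over all genes. The thioredoxins Txn1 and Txn2, the peroxidases Gpx1 and Gpx4 and the pentose phosphate enzymes Pgd, Taldo1 and Tkt rose, and Slc7a11, Srxn1, Nfe2l2 and G6pdx fell. The 7 macrophage markers summed to 4104 to 4465 CPM in hydrogel-treated cells and 2199 to 2273 CPM in LPS-labelled cells. Lyz2, Cd68 and Csf1r made up most of the sum and rose, Adgre1 and Fcgr1 fell, Mrc1 was at 0.752 CPM or less and C1qa at 0.0841 CPM or less in every library. Keratinocyte, fibroblast and erythrocyte markers were each below 1 CPM in sum. Over all genes the median log2 fold change was 0.28, 0.02 and -0.33 in 3 equal bins from the shortest to the longest genes by exon length. Over the 15, 16 and 7 members in these bins it was 0.18, 0.25 and 0.37. The part of gene length in the member differences was not tested.

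The sensor genes moved by small amounts. Nfe2l2 was at 96.4, 101 and 107 CPM in hydrogel-treated cells, against 117, 115 and 116 CPM in LPS-labelled cells, with no overlap (-0.19 ± 0.06, adjusted p = 0.0160). This call did not hold without the filter on low counts (-0.08, adjusted p = 0.468) nor without hydrogel replicate 2 (-0.13, adjusted p = 0.109), LPS replicate 1 (-0.19, adjusted p = 0.0619) or LPS replicate 3 (-0.19, adjusted p = 0.0579). Keap1 was at 106, 102 and 95.9 CPM against 83.0, 84.1 and 85.8 CPM (0.27 ± 0.06, adjusted p = 0.00236). Osgin1, low in both, was at 6.50, 5.16 and 3.78 CPM against 2.55, 1.74 and 2.48 CPM (1.16 ± 0.22, adjusted p = 0.000688). Sqstm1 rose by 0.23 ± 0.06 at a level above 2600 CPM. Nqo1, counted over only part of its exons, had 5, 5 and 4 counted pairs against 2, 2 and 0, too few for the test.

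Slc7a11 (chr3:50364938-50443614, minus strand) had the smallest adjusted p of the members. It was at 292, 263 and 275 CPM in hydrogel-treated cells, against 739, 737 and 714 CPM in LPS-labelled cells. The groups lay far apart and Slc7a11 fell by 1.40 ± 0.06 (adjusted p = 5.01e-08). Its partner in the cystine transporter, Slc3a2, which is no member, rose (0.73, adjusted p = 5.29e-06). Genes of glutathione synthesis differed from Slc7a11 in direction or did not pass. Gclm was at 137, 136 and 133 CPM against 106, 102 and 107 CPM (0.37 ± 0.05, adjusted p = 0.000125), and Gss rose by 0.66 ± 0.07. Gclc was at 37.4, 45.3 and 54.7 CPM against 54.8, 54.9 and 54.7 CPM, a difference that did not pass (-0.25 ± 0.11, adjusted p = 0.0648). Glutathione reductase rose by 0.33 ± 0.05.

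Of the thioredoxin genes the mitochondrial pair rose most. Txn2 was at 216, 196 and 176 CPM in hydrogel-treated cells against 104, 101 and 106 CPM in LPS-labelled cells (0.92 ± 0.08, adjusted p = 2.19e-06). Txnrd2 was at 34.6, 31.7 and 28.5 CPM against 17.5, 17.7 and 19.6 CPM (0.78 ± 0.09, adjusted p = 1.93e-05), while the cytosolic reductase Txnrd1 did not pass (-0.10 ± 0.07, adjusted p = 0.189). Srxn1 was at 238, 251 and 258 CPM against 317, 321 and 311 CPM, lower in each hydrogel library (-0.34 ± 0.06, adjusted p = 0.000289).

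Of 10 peroxiredoxins, glutathione peroxidases and catalase tested, 5 rose, Cat fell and 4 did not pass (Prdx1, Prdx3, Prdx5 and Gpx3). Gpx1, the cytosolic glutathione peroxidase, was at 373, 345 and 278 CPM in hydrogel-treated cells, against 105, 108 and 108 CPM in LPS-labelled cells (1.64 ± 0.10, adjusted p = 2.42e-07). Prdx2 was at 198, 168 and 132 CPM against 85.5, 84.0 and 82.6 CPM (0.98 ± 0.12, adjusted p = 3.34e-05). Sod1, which turns superoxide into hydrogen peroxide, was at 364, 321 and 272 CPM against 153, 152 and 159 CPM (1.04 ± 0.09, adjusted p = 3.38e-06). In these 3 genes, as in Txn2, hydrogel replicate 1 was highest and replicate 3 lowest, and all stood above the LPS-labelled libraries. Gpx4 rose by 0.85 ± 0.11 and Prdx6 by 0.41 ± 0.06. Catalase went the other way, at 61.9, 70.5 and 71.5 CPM against 83.2, 81.4 and 84.8 CPM (-0.29 ± 0.07, adjusted p = 0.00328).

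The group of NADPH supply and the pentose phosphate pathway split by enzyme. Tkt was at 661, 584 and 544 CPM in hydrogel-treated cells against 322, 314 and 332 CPM in LPS-labelled cells (0.89 ± 0.08, adjusted p = 2.48e-06), and Taldo1 rose by 0.77 ± 0.07 and Pgd by 0.53 ± 0.06. G6pdx was at 291, 351 and 369 CPM against 397, 385 and 402 CPM, lower in all 3 (-0.23 ± 0.08, adjusted p = 0.0309). The G6pdx call was lost without the filter (-0.12, adjusted p = 0.215), without hydrogel replicate 2 (-0.21, adjusted p = 0.0722) and without any 1 of the LPS libraries (adjusted p = 0.0588 to 0.0953). Idh1, the cytosolic isocitrate dehydrogenase, was at 55.7, 68.3 and 76.6 CPM against 116, 117 and 118 CPM (-0.80 ± 0.10, adjusted p = 3.26e-05).

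**Figure D5:**
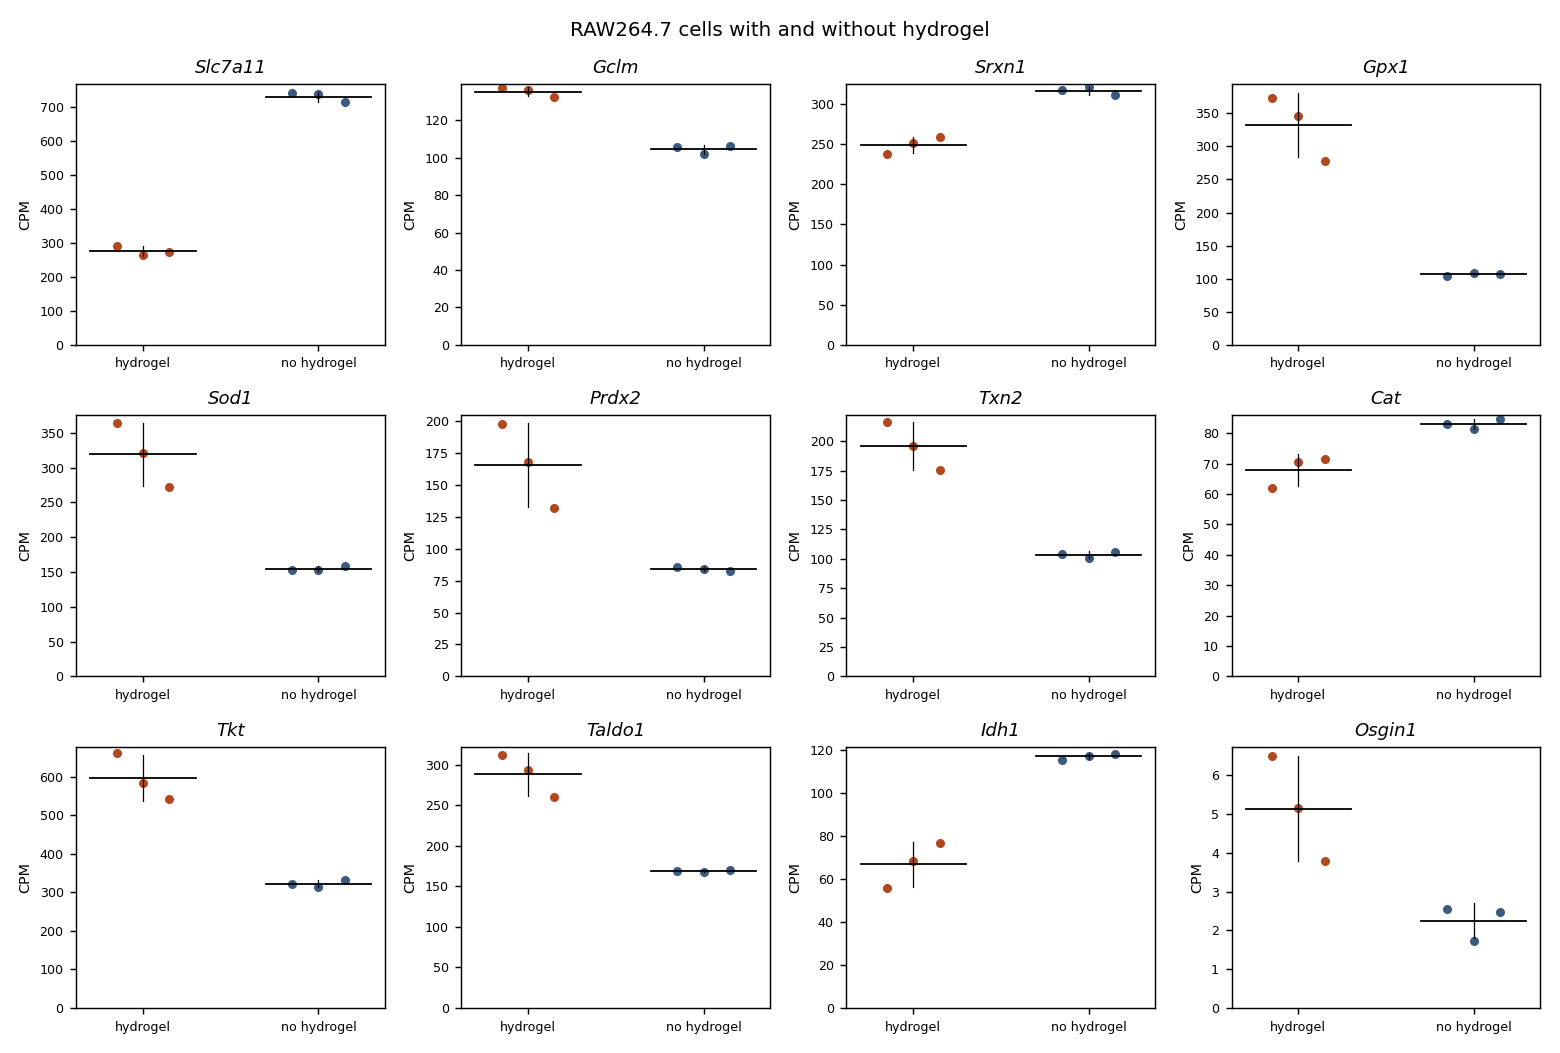
Levels in CPM of 12 members in RAW264.7 cells, hydrogel left of no hydrogel (labelled LPS), with points for libraries, a horizontal line for the mean and a vertical line for the SD (n = 3). Slc7a11 lay at 263 to 292 CPM with hydrogel and 714 to 739 CPM without, and Gpx1 at 278 to 373 CPM with hydrogel and 105 to 108 CPM without.

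Of 16 members called in a hydrogel comparison of wounds, 12 were tested in cells, which share no library with the wounds. Of these, 9 were called in cells, where 72.5% of all genes were called. No member rose in cells and in hydrogel wounds on day 7 or 14, but few could have. Only Glrx and Gpx2 had risen in wounds on day 7 and Gclc on day 14, and Gpx2 was not tested in cells. Prdx4, Sod1, Tkt and Txnrd2 rose in cells and fell in wounds on day 7, Gstm1 rose in cells and fell in wounds on day 14, Cat and Gstt1 fell in cells and in wounds on day 7, Srxn1 fell in cells and in wounds on day 14, and G6pdx fell in cells and in wounds on day 1. In cells the small Prdx4 rise (0.18) was lost without any 1 of the LPS libraries. The differences between cells and wounds were not tested.

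Of 62 further genes of the same pathways, 58 were tested in wounds. On day 1, 1 rose and 5 fell (10.3%, against 7.55% of all genes, 4.53% higher and 3.02% lower). On day 7, 6 rose and 6 fell (20.7%, against 21.6%, 9.86% higher and 11.7% lower). On day 14 none rose and 9 fell (15.5%, against 16.1%, 5.83% higher and 10.3% lower). Aldh3a1, an aldehyde dehydrogenase known from corneal and other epithelia, averaged 190 ± 4.7 CPM in hydrogel wounds on day 7 against 7.57 ± 0.58 CPM in control wounds (SD, n = 3 each). Its rise of 4.65 ± 0.65 (adjusted p = 0.00104) stood beside the higher keratinocyte markers of that day. Txnip, the thioredoxin inhibitor, fell on all 3 days, and on day 1 averaged 466 ± 31 CPM in hydrogel wounds against 2224 ± 680 CPM in control wounds (-2.26 ± 0.33, adjusted p = 0.00297).

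Hmox1, haem oxygenase 1, is induced by NRF2 and is abundant in macrophages. It was at 17.1, 13.8 and 11.4 CPM in hydrogel wounds on day 14 against 208, 96.6 and 68.2 CPM in control wounds, without overlap (-3.14 ± 0.52, adjusted p = 0.00228). On days 1 and 7 its log2 fold changes of 0.47 ± 0.48 and -0.78 ± 0.48 did not pass. The 7 macrophage markers fell on day 7 as well as on day 14, and their part in the Hmox1 difference was not tested. In cells 31 of the 45 further genes tested rose and 5 fell, beside 34.7% of all genes higher and 37.8% lower. Hmox1 was at 1950, 2059 and 2099 CPM in hydrogel-treated cells against 1574, 1545 and 1600 CPM in LPS-labelled cells (0.37 ± 0.06, adjusted p = 0.000225). Bach1, a repressor of NRF2 target genes, fell in cells by 0.86 ± 0.07 (adjusted p = 1.08e-06), and Idh2, which makes NADPH in mitochondria, rose by 1.36 ± 0.07 (adjusted p = 9.48e-08).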

How the data were processed

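Counts of read pairs per gene symbol were analysed as the authors deposited them. Per the file headers they were made with featureCounts 2.0.6 over exons of the GENCODE M25 annotation (GRCm38.p6), without use of strand, so antisense transcripts cannot be told from sense. Per the submitters' processing notes, Trim Galore 0.6.10, FastQC 0.11.9, HISAT2 2.2.1, SAMtools 1.9 and mm10 were used. Samples were grouped by their labels. Work was done in R 4.3.3 with edgeR 4.0.16. Low genes were removed with filterByExpr at a count of 10 and a total of 15, and TMM set the library sizes. Wounds (18 libraries, 6 group means, 12 residual degrees of freedom) and cells (6 libraries, 4 degrees of freedom) were each given a robust quasi-likelihood fit, with Benjamini-Hochberg adjustment over all tested genes and a threshold of 0.05. Alternatives were RLE scaling, no filter, DESeq2 1.42.0, limma 3.58.1 quality-weighted voom, models of the compared groups alone, a replicate block, each library left out, both control libraries that stood apart left out, and day 7 libraries summed. The scripts were tested on simulated counts. The members, lists, tests and alternatives were chosen with earlier results of these data known.

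Values in every library are given for up to 4 members per role and hydrogel comparison that passed with groups apart and at least 5 CPM in the higher group, by adjusted p, and for the panel of 10 named genes. Up to 5 members per direction are named for days and interaction, and up to 5 genes of other lists, with Hmox1. Other members named are those of the same role, for completeness. No list was tested for enrichment.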

Additional observations from a re-analysis of the deposited data

Results flagged for a closer look

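The effect of the hydrogel in wounds differed between days in 4 members by the interaction test of edgeR over all tested genes, Gpx3 (adjusted p = 0.00716), Gclc (0.0137), Glrx (0.025) and G6pdx (0.0455), where 15.8% of all genes were called. The hydrogel libraries of Gclc were all below the controls on day 1 and all above them on day 7. Those of G6pdx were all below the controls on day 7 and all above them on day 14.

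In 5 members that passed in both RAW264.7 cells and wounds, every hydrogel library lay on 1 side of its controls in cells and on the other side in wounds, and the difference between cells and wounds was not tested. Sod1 had a log2 fold change of 1.04 in cells and -1.65 in wounds on day 7. Txnrd2 had 0.78 and -1.04, Tkt 0.89 and -1.54, and Prdx4 0.18 and -1.47. Gstm1 had 0.74 in cells and -1.29 in wounds on day 14. In wounds the calls of Sod1 and Txnrd2 held in 13 of 14 alternative settings, Gstm1 in 9, Tkt in 6 and Prdx4 in 5. In cells the Prdx4 call held in 8 of 11 and was lost without any 1 of the LPS libraries, and the others held in all 11.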

How the results depend on the processing

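The counts of members called moved with the processing more in wounds than in cells. Under voom with quality weights 8, 35 and 14 members were called for hydrogel over control on days 1, 7 and 14, 30 for the interaction and 27 for hydrogel day 7 over day 1, against 1, 11, 7, 4 and 11 as reported above. That setting called 24.3%, 70%, 33.1%, 49.8% and 52.3% of all genes. With no filter the counts were 0 on day 1, 5 on day 7, 2 for the interaction, 10 and 14 for control days 7 and 14 over day 1, and 6 for hydrogel day 7 over day 1 (2.19% to 13.6% of all genes). DESeq2 gave 5 on day 1 and 10 for the interaction (14.9% and 26.5% of all genes). With only the compared groups in the model the counts were 0, 37 and 0 on days 1, 7 and 14 (0%, 70.2% and 2.61% of all genes). For control days 7 and 14 over day 1 the counts were 11 and 0 (28% and 0.49% of all genes). Without both control libraries that stood apart they were 4 on day 1, 20 on day 7, 16 for the interaction and 24 for hydrogel day 7 over day 1 (19.6%, 39.4%, 37.1% and 37.3% of all genes). Once each day 7 group had been summed to 1 library, the counts were 0, 0 and 1 on days 1, 7 and 14, 0 for the interaction, 0 and 10 for control days 7 and 14 over day 1, and 0 for hydrogel day 7 over day 1, a fit with fewer samples. In the same order that setting called 0.0732%, 0%, 2.87%, 0.141%, 0.507%, 15.2% and 0.00523% of all genes. The cause of the moves was not tested for this or any other setting.

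Leaving out 1 library at a time gave 0 to 6 members on day 1, 3 to 5 on day 7, 1 to 11 on day 14, 2 to 13 for the interaction, 7 to 24 and 13 to 24 for control days 7 and 14 over day 1, 4 to 12 and 21 to 26 for hydrogel days 7 and 14 over day 1, and 23 to 31 in cells. On day 1 the count was 0 without control replicate 1 or hydrogel replicate 3, 2 without hydrogel replicate 2, 4 without control replicate 3 and 6 without hydrogel replicate 1. The share of all genes called moved as well, at 9.48%, 4.15% and 7.75% without control replicates 1, 2 and 3. Where no such share is given, the swings cannot be called particular to the members. The interaction gave 13 without control day 1 replicate 1 (29.2% of all genes) and 7 without control day 14 replicate 3 or hydrogel day 1 replicate 1. It gave 2 without any 1 of the day 7 libraries or without hydrogel day 14 replicate 2 or 3. Control day 7 over day 1 gave 7 to 9 without control day 1 replicate 2 or any 1 control day 7 library, control day 14 over day 1 gave 13 without control day 1 replicate 2, and hydrogel day 7 over day 1 gave 4 to 6 without hydrogel day 1 replicate 2 or any 1 hydrogel day 7 library. Deviations of same-numbered libraries had correlations of 0.09 to 0.38 on day 1, 0.04 to 0.11 on day 7, -0.01 to 0.24 on day 14 and -0.01 to 0.01 in cells. Differently numbered libraries were not set beside them, so these values do not settle whether the numbers pair the samples. With the replicate number as a block, 0, 11 and 8 members were called on days 1, 7 and 14, 6 for the interaction and 28 in cells. In the same order the block called 7.09%, 24.3%, 17.4%, 15.8% and 71.6% of all genes.

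Single-gene values were followed only for the members called in each hydrogel comparison and for the panel of named genes. Counted as pairs of a value and an alternative setting, 124 lost their call and 36 gained a call. None that passed turned its direction while passing. Gains by uncalled members outside the panel were not counted, so gains and losses cannot be set against each other. On day 7 voom with quality weights called 35 members, against 11 in the main fit. The Gpx3 fall on day 14 passed in 13 of 14 settings, and so did those of Sod1, Gpx8 and Txnrd2 on day 7. Gpx3 did not pass with only the compared groups in the edgeR model (adjusted p = 0.0619). Sod1, Gpx8 and Txnrd2 did not pass with the day 7 libraries summed. In the main fit all wound groups share their spread, so tests on days 1 and 14 also draw on the narrow day 7 groups. In cells 23 of the 28 calls held in all 11 settings. The 3 libraries per group and the wide spread of the control day 1, control day 14 and hydrogel day 1 wounds limit what could be called. The control day 7 and LPS libraries spread by little more than counting noise.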
